A study of Mus musculus with 24 samples.

Results

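The vascular endothelial growth factor (VEGF) ligands and their receptors were described here across mouse left ventricle. The set comprised 10 genes of the 19057 named on the arrays, taken as every probe annotated to Vegfa, Vegfb, Vegfc, Vegfd (also called Figf), Pgf, Flt1, Kdr, Flt4, Nrp1 and Nrp2. The 24 arrays held left ventricular RNA of male mice in 8 groups of 3. In each of C57Bl/6J and Balb/C, Bmx-deficient and wild type mice had received angiotensin II (AngII), a pressor peptide used to induce cardiac hypertrophy, or NaCl as the sham infusion, for 2 weeks. Deficient samples carry KO in their C57Bl/6J names and TK in their Balb/C names, and neither the alleles behind these names nor the age of the mice is stated. Whether each array held 1 animal is not stated either, and the p-values reflect only how far arrays of a group differ, which may be technical.

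VEGF ligands are secreted dimers that act mainly on endothelial cells through receptor tyrosine kinases. VEGF-A drives the growth and permeability of blood vessels through the receptor encoded by Kdr, while the receptor encoded by Flt1 binds VEGF-A, VEGF-B and placental growth factor, largely as a decoy for VEGF-A. VEGF-C and VEGF-D signal through the receptor encoded by Flt4 in lymphatic endothelium, and the neuropilins Nrp1 and Nrp2 are co-receptors shared with the class 3 semaphorins. In the heart much of the VEGF-A comes from cardiomyocytes, and its transcription responds to low oxygen. Bmx is a cytoplasmic tyrosine kinase of the Tec family found in endothelium.

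Median probe signals ranged from 124.2 to 139.8 in C57Bl/6J and from 95.3 to 110.2 in Balb/C, and arrays of one group correlated between 0.985 and 0.993. The strains were normalized separately, so levels are compared within a strain only. All values are log2 signals, the spread is given as the standard error (SE) of a limma fit, and a gene was called when its Benjamini-Hochberg adjusted p over all tested genes of a strain was below 0.05. The Bmx probe used was detected on all 24 arrays and gave no called difference. Its range was 6.27 to 6.70 for wild type and 5.99 to 6.62 for deficient C57Bl/6J arrays, and 5.28 to 5.74 against 5.60 to 6.04 in Balb/C, and where it lies relative to the altered part of the gene is not known here. The other 3 Bmx probes were detected on 0 to 2 arrays. The arrays do not show the loss of Bmx, and deficient is used here as the label of a group. Of 10 cardiomyocyte markers 9 were kept, Tnnt2 having no probe, and of 18 pan-endothelial markers 15 were kept, without Erg, Ecscr and Fabp4.

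Promoter windows of Vegfa, Nrp1 and Vegfd are shown here, since Vegfa and Nrp1 moved in opposite directions and Vegfd lies close to Bmx. No link between the letters of a window and a change was tested. RefSeq promoter windows of GRCm38.p6, from 250 bases before to 50 after a start site, were found for all 10 members, in 12 windows. Capitals mark the hypoxia response core, the letters ACGTG or GCGTG, and the TATA box, the letters TATAAA, on either strand, without overlap between them here. They are shown as 5′ to 3′ on the strand of the gene.
Vegfa, outer start, chr17:46032328-46032627, minus strand: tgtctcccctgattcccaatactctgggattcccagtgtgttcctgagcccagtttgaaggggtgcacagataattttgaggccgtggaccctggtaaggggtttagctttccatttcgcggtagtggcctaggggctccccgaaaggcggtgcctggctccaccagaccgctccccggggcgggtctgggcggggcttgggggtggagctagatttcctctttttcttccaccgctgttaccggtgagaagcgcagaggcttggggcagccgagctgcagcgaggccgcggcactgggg
Vegfa, inner start, chr17:46025114-46025413, minus strand: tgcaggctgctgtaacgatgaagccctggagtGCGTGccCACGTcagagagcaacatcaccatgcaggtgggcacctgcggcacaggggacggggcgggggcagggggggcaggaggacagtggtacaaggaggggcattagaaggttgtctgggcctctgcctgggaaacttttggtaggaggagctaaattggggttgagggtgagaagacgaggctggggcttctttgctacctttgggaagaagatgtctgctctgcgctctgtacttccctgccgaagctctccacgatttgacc
Nrp1, chr8:128358823-128359122, plus strand: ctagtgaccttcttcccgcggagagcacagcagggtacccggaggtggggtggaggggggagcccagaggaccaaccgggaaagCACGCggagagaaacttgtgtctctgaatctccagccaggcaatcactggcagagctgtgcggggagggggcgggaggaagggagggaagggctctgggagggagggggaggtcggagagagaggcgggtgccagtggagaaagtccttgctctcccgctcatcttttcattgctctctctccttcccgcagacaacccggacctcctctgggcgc
Vegfd, chrX:164373272-164373571, plus strand: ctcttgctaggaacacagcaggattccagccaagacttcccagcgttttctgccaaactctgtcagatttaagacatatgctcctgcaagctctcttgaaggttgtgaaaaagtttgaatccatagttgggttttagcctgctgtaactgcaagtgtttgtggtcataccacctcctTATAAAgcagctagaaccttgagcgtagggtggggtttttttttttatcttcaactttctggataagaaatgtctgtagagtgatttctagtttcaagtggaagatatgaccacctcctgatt
The hypoxia core was present in 7 of the 12 member windows and in 43.8% of all 32851 promoter windows of this table. The inner Vegfa window held it at 2 places, the outer one at 0 and the Nrp1 window once. The inner window lies within the gene, downstream of the outer start, so its matches do not lie ahead of the outer start. Whether they fall in an exon was not checked. The Vegfd window held the TATA box, as did that of Flt1, against 13.6% of all windows. The box GGGCGG of Sp1, read on both strands, was found in 10 of the 12 windows against 35.7% of all, and Vegfd and the inner Pgf start were the windows without it. GGAAA, the core letters of NFAT sites, stood in 8 of the 12 and in 61.3% of all windows. These are matches of letters only.

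All 10 members were tested in both strains. Under AngII, the brighter of 2 kept Vegfa probes rose and Nrp1 fell in both genotypes of Balb/C. Nrp2 was called lower in wild type Balb/C only, a call kept in 5 of 12 other settings. No member passed the threshold in C57Bl/6J. In wild type Balb/C, 3 members were called, 1 higher and 2 lower, where 37.2% of all genes were called. In deficient Balb/C, 2 were called, 1 in each direction, where 13.4% of all genes were called. In C57Bl/6J 0 members were called in wild type, against 7.9% of all genes, and 0 in deficient mice, against 3.72%. By limma at an unadjusted p below 0.05 the counts in C57Bl/6J were 1 in wild type and 2 in deficient mice. Sham and AngII arrays did not overlap for 46.5% of all genes and 6 members in wild type Balb/C. The same held for 34.8% and 2 members in deficient Balb/C. In C57Bl/6J it held for 29.2% and 2 members in wild type and 26.7% and 1 member in deficient mice. Lack of overlap under AngII is to be read beside these shares. The median AngII difference over the members was -0.14 in wild type Balb/C, beside -0.06 over all genes, and -0.01 in wild type C57Bl/6J, beside -0.02. Which members were called in wild type Balb/C depended on the scaling. With a common median for all arrays in place of quantiles there were again 3, all higher, namely Vegfa at 1.16, Vegfc at 0.79 (adjusted p = 0.00341) and Vegfd at 0.80 (adjusted p = 0.00728), and the neuropilins were not called. The plot of AngII responses shows that most intervals spanned 0.

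**Figure D1:**
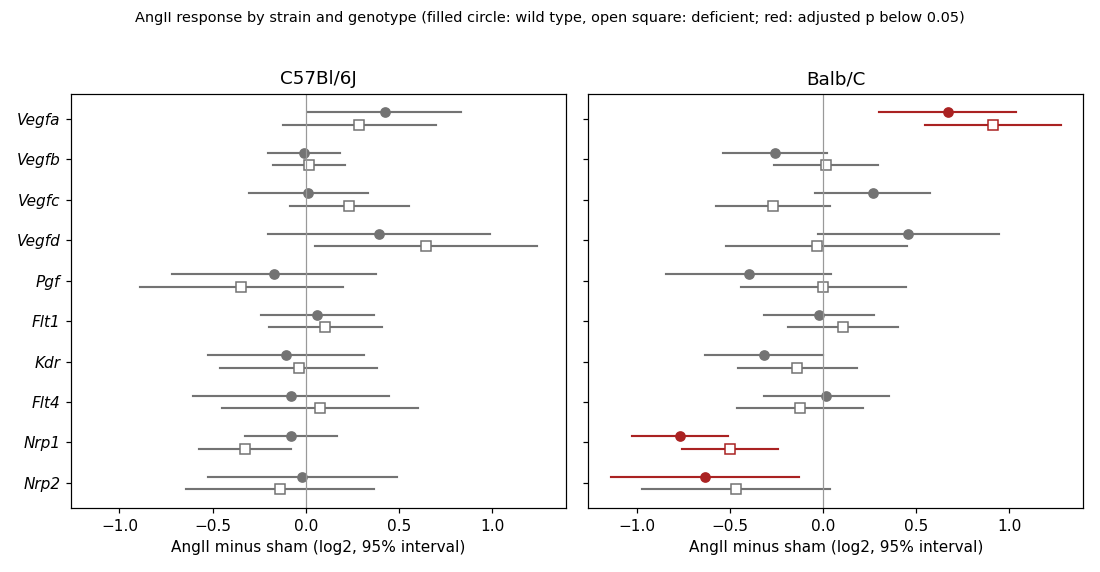
AngII minus sham for each member on the log2 scale, with C57Bl/6J on the left and Balb/C on the right. Points are differences of means of 3 arrays, lines are 95% intervals, filled circles are wild type, open squares are deficient, and red marks an adjusted p below 0.05. The red points are Vegfa to the right of 0 and Nrp1 and Nrp2 to the left, in Balb/C.

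The ligand Vegfa (chromosome 17, 46016993 to 46032377, GRCm38.p6) was measured by 2 kept probes, and the brighter one, ILMN_2484527, gave the values used. In wild type Balb/C it read 10.56, 10.30 and 11.03 in sham and 11.25, 11.46 and 11.18 under AngII. In deficient Balb/C it read 10.10, 10.12 and 10.33 in sham and 10.97, 11.01 and 11.31 under AngII. The AngII arrays were above every sham array of their genotype. Vegfa rose by 0.67 ± 0.17 (SE, n = 3 per group, 1.59-fold, limma adjusted p = 0.00636) in wild type and by 0.91 ± 0.17 (1.88-fold, adjusted p = 0.00268) in deficient mice. The responses of the genotypes differed by 0.24 ± 0.24 (adjusted p = 0.698), which was no called difference. In sham, deficient Balb/C lay 0.44 ± 0.17 below wild type (adjusted p = 0.422).

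In C57Bl/6J this probe read 11.15, 11.22 and 11.15 under wild type sham and 11.25, 11.55 and 12.01 under AngII. The groups did not overlap, but the AngII arrays were spread widely, and the difference of 0.42 ± 0.19 was not called (adjusted p = 0.195). Deficient C57Bl/6J read 11.52, 11.61 and 11.15 in sham and 11.61, 11.53 and 12.01 under AngII, which overlapped. Averaged over genotypes, a contrast added after the values were seen, Vegfa was 0.36 ± 0.13 higher under AngII in C57Bl/6J (adjusted p = 0.0881), where 16.9% of all genes and 0 members were called. The same contrast in Balb/C gave 0.79 ± 0.12 (adjusted p = 9.96e-05), where 41.7% of all genes and 3 members were called. The Vegfa response did not differ by a called amount between the strains, with 0.25 ± 0.26 (adjusted p = 0.568) in wild type and 0.62 ± 0.26 (adjusted p = 0.229) in deficient mice.

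The probes of Vegfa disagreed in Balb/C. The dimmer kept probe, ILMN_3121255, read 9.26, 9.03 and 9.47 in wild type sham and 8.78, 9.45 and 9.0 under AngII. In deficient Balb/C it read 8.74, 8.63 and 9.16 in sham and 8.60, 8.65 and 8.93 under AngII. The groups overlapped in both genotypes, and with every kept probe tested as its own row the differences were -0.18 ± 0.19 (limma adjusted p = 0.493) and -0.12 ± 0.19 (adjusted p = 0.724). On the same array the log2 ratio of the brighter to the dimmer probe was 1.27 to 1.55 in wild type sham and 2.02 to 2.46 under AngII. It was 1.17 to 1.49 in deficient sham and 2.36 to 2.38 under AngII. The ratio thus shifted by 0.94 on average in Balb/C (exact permutation of infusion within genotype, two-sided p = 0.005, the smallest of 400 arrangements, adjusted p = 0.04 over 8 probe pairs). In C57Bl/6J it shifted by 0.10 (exact p = 0.46, adjusted p = 0.46), and there the dimmer probe was 0.52 ± 0.15 higher under AngII in wild type (adjusted p = 0.0574). The rise of Vegfa in Balb/C therefore rests on 1 of the 2 kept probes, and with the mean of both it was 0.24 (adjusted p = 0.284) in wild type and 0.40 (adjusted p = 0.144) in deficient mice. The brighter probe is annotated to the transcript NM_009505 and the dimmer one to NM_001025250. The remaining probe, ILMN_3045723, also annotated to NM_001025250, was detected on 0 arrays, and where the probes lie in the gene was not given.

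**Figure D2:**
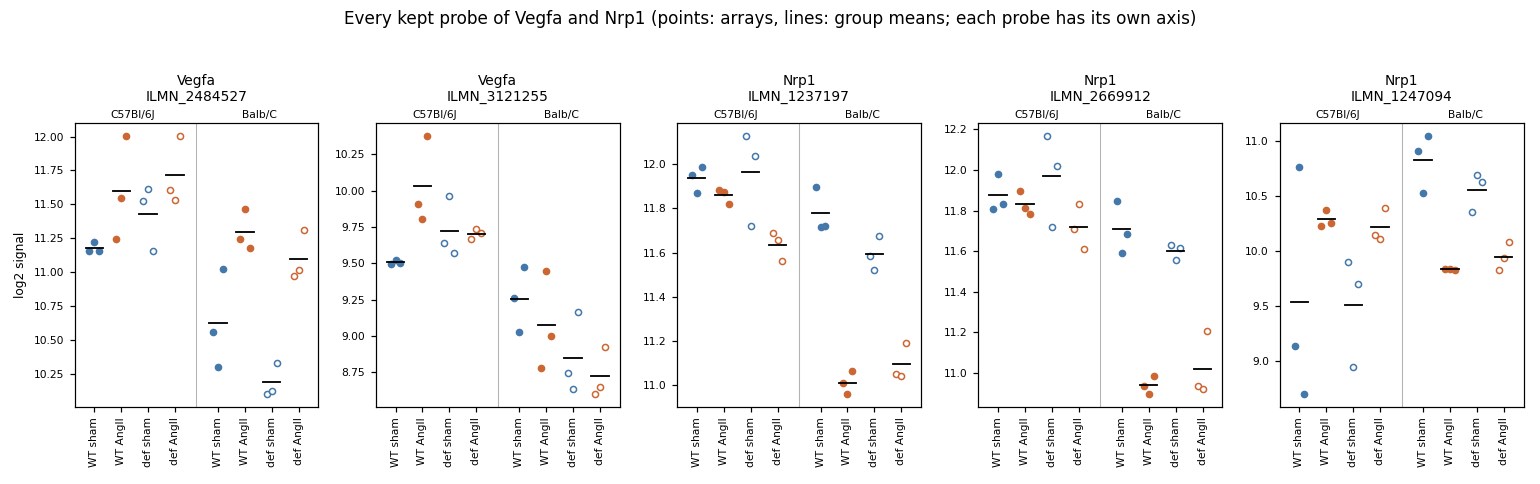
log2 signal on every array for the 2 kept probes of Vegfa and the 3 of Nrp1, with groups of C57Bl/6J left and of Balb/C right of the grey line. Points are arrays, filled for wild type and open for deficient, and lines are group means. In Balb/C the first Vegfa probe is higher under AngII and the second is not, while all 3 Nrp1 probes are lower.

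Vegfb, whose product binds Flt1 and is abundant in heart muscle, was bright and nearly constant. Its group means ran from 13.31 to 13.35 in C57Bl/6J, and the AngII differences there were -0.01 ± 0.09 and 0.02 ± 0.09. In Balb/C it read 12.48, 12.27 and 12.22 in wild type sham and 12.15, 11.92 and 12.13 under AngII, which did not overlap. That difference of -0.26 ± 0.13 was not called (adjusted p = 0.137). Vegfb was called with no background correction (-0.25, adjusted p = 0.0468) and on the deposited series values (-0.25, adjusted p = 0.0491), and turned to 0.19 (adjusted p = 0.457) with a common median for all arrays in place of quantile normalization.

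Pgf, encoding placental growth factor, a Flt1 ligand, was close to background. Its probe was detected on 6 of 12 C57Bl/6J and 11 of 12 Balb/C arrays, and its values ran from 4.50 to 5.80 over both strains. The AngII differences ran from -0.40 ± 0.21 in wild type Balb/C (adjusted p = 0.147) to 0.00 ± 0.21 in deficient Balb/C, and 0 of 12 comparisons called it. A change of the size of these intervals was not detectable with this probe.

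Vegfc, the main lymphatic growth factor, was lower in deficient than in wild type Balb/C under AngII. The wild type arrays read 7.17, 7.11 and 7.46, and the deficient arrays 6.48, 6.68 and 6.97, which did not overlap. Neither did the arrays of 29.2% of all genes in this contrast, and of 4 members. It fell by 0.54 ± 0.14 on the log2 scale between these groups (to 0.689 of the wild type level, limma adjusted p = 0.0255), and it was the 1 member called there, where 10.7% of all genes were called. The sham arrays read 7.01, 6.94 and 7.0 for wild type and 7.03, 6.89 and 7.0 for deficient Balb/C, with no called difference. The wild type mean was 0.27 ± 0.14 higher and the deficient mean 0.27 ± 0.14 lower under AngII than in sham, and neither was called (0.164 and 0.240 as adjusted p), although array weights made the wild type one a call (0.37, adjusted p = 0.0462), as did median scaling (0.79, adjusted p = 0.00341). The difference of these responses, -0.53 ± 0.20, was not called either (adjusted p = 0.222), where 0 members and 2.11% of all genes were, with 1 member, Vegfc, at an unadjusted p below 0.05. With arrays scaled to a common median it was -1.03 (adjusted p = 0.0307). The call between genotypes under AngII was lost without 1 of 3 arrays (wild type AngII replicate 3, deficient AngII replicate 1 or deficient AngII replicate 2, adjusted p 0.0802 to 0.143) and when only the AngII groups entered the fit (adjusted p = 0.0668).
In C57Bl/6J the values ran from 7.87 to 8.50 in all 4 groups. Deficient arrays were 0.30 ± 0.15 above wild type under AngII (adjusted p = 0.530), opposite in sign to Balb/C, and the strains were not compared in this contrast.

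Vegfd, the other lymphatic ligand, had the largest difference between genotypes of the set, in C57Bl/6J. Its wild type sham values were 6.87, 6.37 and 6.94 and its deficient sham values 5.99, 4.79 and 5.55. Its wild type values under AngII were 7.04, 7.20 and 7.12 and its deficient ones 6.05, 5.69 and 6.51. In both infusions every deficient array lay below every wild type array, although 1 deficient sham array was not detected. Genotypes did not overlap, in either direction, for 10.9% of all genes in sham and 14.8% under AngII. The deficient level was 0.411 of wild type in sham, a difference of -1.28 ± 0.27 (adjusted p = 0.415). It was 0.489 of wild type with AngII, a difference of -1.03 ± 0.27 (adjusted p = 0.236). Neither was called, in contrasts where 0 members were called and 0% and 0.166% of all genes were. The size depended on the background correction. Without it the differences were -0.50 in sham (adjusted p = 0.622) and -0.48 with AngII (adjusted p = 0.083), on the deposited series values -0.50 and -0.49, and with an offset of 50 they were -0.84 and -0.75. With the main settings the sham difference stood by size at percentile 99.96 of all genes and by p at rank 11 of 10816. At an unadjusted p below 0.05 limma gave 718 genes in sham and 1047 under AngII, with 1 member in each, Vegfd. Averaged over infusions, as added after the values were seen, it was -1.16 ± 0.19 (adjusted p = 0.0608, rank 10), where 0.0832% of all genes and 0 members were called. These values come from the same arrays as the per-infusion contrasts and are no separate evidence.

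In Balb/C, the genotypes overlapped for Vegfd in sham, with 5.45, 5.19 and 5.07 in wild type and 5.46, 4.59 and 5.42 in deficient mice. Under AngII the values were 5.53, 5.98 and 5.57 for wild type and 4.75, 5.11 and 5.50 for deficient mice. These did not overlap, but the nearest arrays stood at 5.50 and 5.53, and the probe was detected on 10 of 12 Balb/C arrays. The difference was -0.08 ± 0.23 in sham (adjusted p = 0.929) and -0.57 ± 0.23 with AngII (adjusted p = 0.125). The latter was -0.80 (adjusted p = 0.0166) under median scaling and -0.20 (adjusted p = 0.192) without background correction. Between genotypes of Balb/C in sham, 0 members and 0% of all genes were called, with 1136 genes and 1 member, Vegfa, at an unadjusted p below 0.05 in limma, and averaged over infusions 0 members and 7.93% of all genes were.

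Vegfd lies on chromosome X at 164373522 to 164402650, and Bmx at 164192842 to 164258193 (GRCm38.p6), with 115329 bases and 1 protein-coding gene, Pir, between them. In C57Bl/6J, Pir differed between genotypes by -0.33 in sham and 0.31 under AngII, and Piga, on the other side of Vegfd, by 0.17 and -0.10, none of them called. Averaged over infusions Bmx itself was -0.30 ± 0.11 (adjusted p = 0.562) and Asb11 0.52 ± 0.16 (adjusted p = 0.452). Of 21 listed genes around and including Bmx, without Vegfd, 10 were tested in C57Bl/6J. Since 0% of all genes in sham and 0.166% under AngII were called between genotypes, that 0 of these 10 were called says nothing particular about them. The plot of neighbouring genes shows Vegfd alone near -1.16, with the intervals of Pir and Piga around 0.

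**Figure D3:**
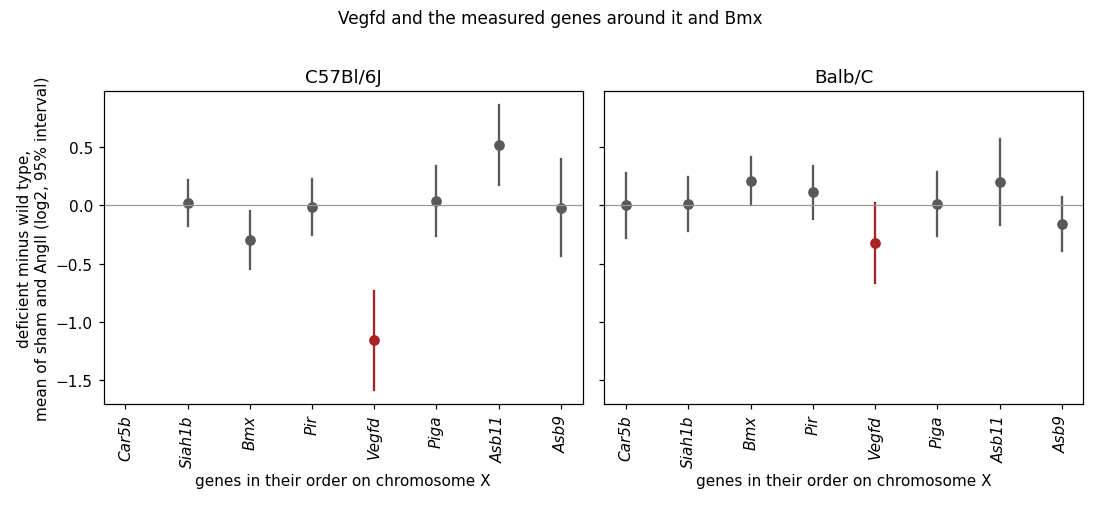
Deficient minus wild type, averaged over sham and AngII, on the log2 scale, for the measured genes around Bmx and Vegfd in their order on chromosome X. Points are estimates, lines are 95% intervals, Vegfd is red, and Car5b was kept in Balb/C only. Vegfd stands at -1.16 in C57Bl/6J and at -0.32 in Balb/C.

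Among the receptors, Flt1 was bright, and its main probe gave no called difference. Its group means ran from 12.02 to 12.20 in C57Bl/6J and from 11.19 to 11.37 in Balb/C, and the 4 AngII differences ran from -0.02 ± 0.14 to 0.10 ± 0.14. The value in wild type Balb/C depended on the scaling and the probes, at 0.47 (adjusted p = 0.0655) with median scaling and -0.22 (adjusted p = 0.160) with the mean of detected probes. A dimmer Flt1 probe, ILMN_2732721, read 5.90, 5.68 and 5.99 in wild type Balb/C sham and 5.51, 5.29 and 5.49 under AngII, which did not overlap. Tested as its own row it fell by 0.43 ± 0.15 on the log2 scale (limma adjusted p = 0.0408 over all kept probes). It was not called for AngII in the other 3 pairs of groups. The ratio between the probes shifted by 0.27 with AngII in Balb/C (exact permutation p = 0.09, adjusted p = 0.23). A disagreement between the Flt1 probes was thus not shown.
Kdr, the main signalling receptor for VEGF-A, could barely be measured. Its probe was detected on 6 of 12 C57Bl/6J and 11 of 12 Balb/C arrays and on 0 of the 3 wild type AngII arrays of C57Bl/6J, so its level in that group is only bounded by background. In wild type Balb/C it read 5.47, 5.37 and 5.03 in sham and 4.86, 5.0 and 5.06 under AngII, a difference of -0.32 ± 0.15 (adjusted p = 0.112). Kdr was called without wild type sham replicate 3 (-0.44, adjusted p = 0.0404), while median scaling gave -0.07 and no background correction -0.10.
Flt4, the lymphatic receptor, was detected on all C57Bl/6J and 8 of 12 Balb/C arrays, with values from 4.55 to 6.21. Its AngII differences ran from -0.12 ± 0.16 to 0.08 ± 0.24, and 0 of 12 comparisons called it.

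**Figure D4:**
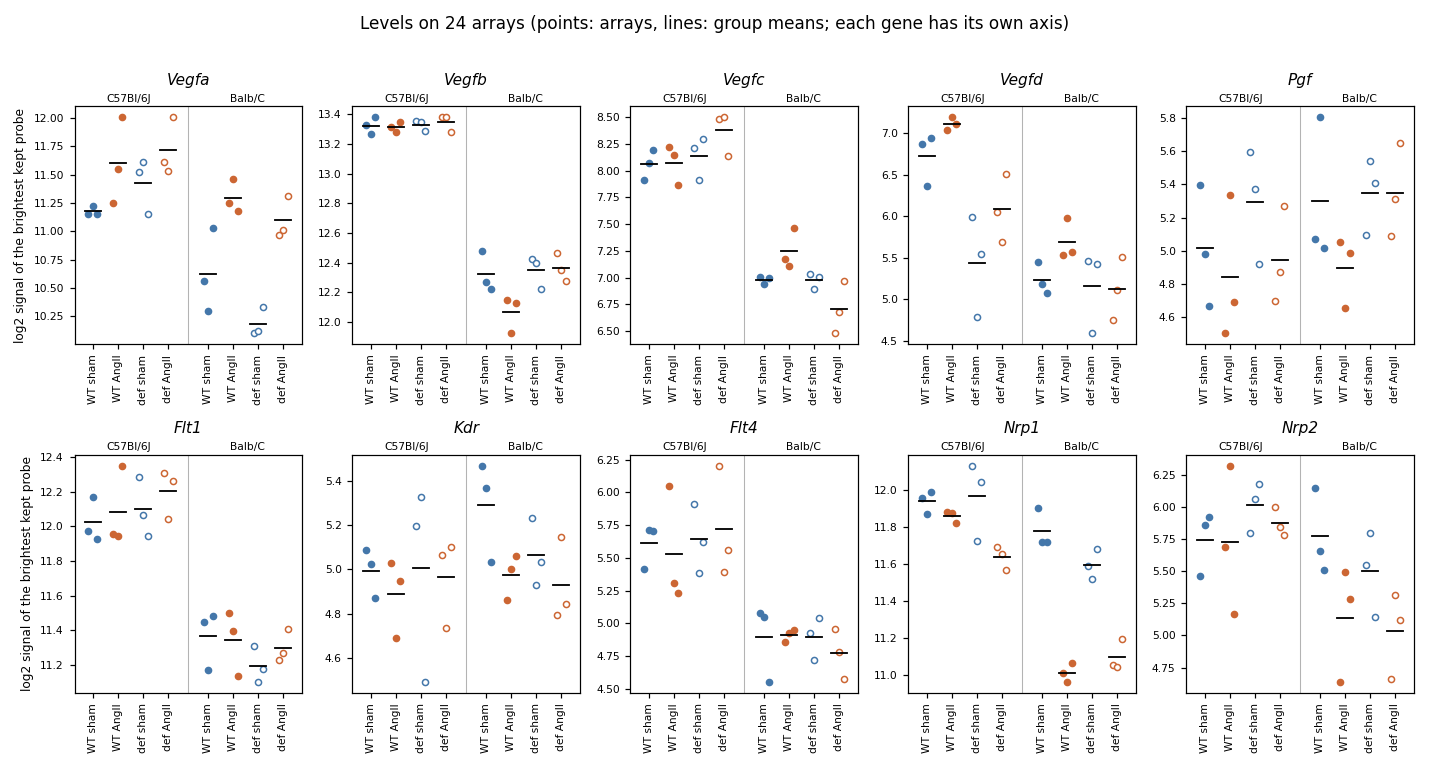
log2 signal of the brightest kept probe of each member on all 24 arrays, each gene on its own axis, with C57Bl/6J left and Balb/C right of the grey line. Points are arrays, blue for sham and orange for AngII, filled for wild type (WT) and open for deficient (def), and lines are group means. In Balb/C, sham and AngII arrays of Vegfa and Nrp1 do not overlap in either genotype. In C57Bl/6J, the genotypes do not overlap for Vegfd. Flt1 stays within about the same range. Lack of overlap with AngII held for 6 members and 46.5% of all genes in wild type Balb/C, and for 2 members and 34.8% in deficient Balb/C. Between genotypes of C57Bl/6J it held for 10.9% of all genes in sham and 14.8% under AngII.

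The co-receptor Nrp1 (chromosome 8, 128358591 to 128505476, GRCm38.p6) was measured by 3 kept probes. In wild type Balb/C it read 11.90, 11.71 and 11.72 in sham and 11.01, 10.96 and 11.07 under AngII. In deficient Balb/C it read 11.59, 11.52 and 11.68 in sham and 11.05, 11.04 and 11.19 under AngII. In each genotype every AngII array lay below every sham array. Lack of overlap, in either direction, held for 46.5% of all genes in wild type and 34.8% in deficient Balb/C. Nrp1 fell by 0.77 ± 0.12 on the log2 scale (to 0.588 of sham, limma adjusted p = 0.000176) in wild type and by 0.50 ± 0.12 (to 0.708, adjusted p = 0.0135) in deficient mice, and these responses differed by 0.27 ± 0.17 (adjusted p = 0.504). In deficient mice the call was lost without sham replicate 3 (adjusted p = 0.0565) or AngII replicate 2 (adjusted p = 0.0501). With a common median for all arrays in place of quantiles, which moved the median of all genes in the wild type contrast by 0.38, Nrp1 was at -0.26 (adjusted p = 0.245), or -0.58 relative to that median, and at -0.46 (adjusted p = 0.130) in deficient mice.

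In wild type C57Bl/6J, Nrp1 read 11.95, 11.87 and 11.99 in sham and 11.88, 11.88 and 11.82 under AngII, a difference of -0.08 ± 0.11 (adjusted p = 0.721). In deficient C57Bl/6J it read 12.13, 11.72 and 12.04 in sham and 11.69, 11.66 and 11.56 under AngII, without overlap, and -0.33 ± 0.11 was not called (adjusted p = 0.118). It was called there without background correction (-0.32, adjusted p = 0.0447), with a trended prior (adjusted p = 0.0414) and on the deposited series values (adjusted p = 0.0461). Between strains the wild type response of Nrp1 differed by -0.69 ± 0.15 (limma on 24 arrays, adjusted p = 0.00452). It was the 1 member called in that contrast, where 14.8% of all genes were called, and with median scaling it was -0.18 (adjusted p = 0.614). In deficient mice the strain difference was -0.17 ± 0.15 (adjusted p = 0.596), where 0 members and 1.1% of all genes were called and 2 members had an unadjusted p below 0.05. The difference of AngII responses between genotypes of C57Bl/6J called 0 members and 0.0555% of all genes, with 0 members and 972 genes at an unadjusted p below 0.05 in limma.

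The other Nrp1 probes bear on this. ILMN_2669912 gave -0.77 ± 0.13 (adjusted p = 0.000317 over all kept probes) in wild type and -0.58 ± 0.13 (adjusted p = 0.00809) in deficient Balb/C, and -0.04 ± 0.13 in wild type C57Bl/6J. ILMN_1247094, annotated to the transcript AK030358, gave -0.99 ± 0.15 (adjusted p = 0.000121) in wild type and -0.61 ± 0.15 (0.0145 as adjusted p) in deficient Balb/C. All 3 probes thus fell in Balb/C. In C57Bl/6J the last probe was uneven in wild type sham, at 9.14, 10.77 and 8.71, against 10.23, 10.38 and 10.26 under AngII. In deficient C57Bl/6J it read 9.90, 8.95 and 9.70 in sham and 10.15, 10.11 and 10.40 under AngII, the opposite direction to the other probes. The log2 ratio of the brightest probe to it shifted by -0.93 with AngII in C57Bl/6J (exact permutation p = 0.02, adjusted p = 0.08).

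Nrp2, the co-receptor of VEGF-C and VEGF-D in lymphatic vessels, was dim. In wild type Balb/C it read 6.15, 5.66 and 5.51 in sham and 4.64, 5.50 and 5.28 under AngII, and 1 AngII array was not detected. It fell by 0.64 ± 0.24 on the log2 scale (to 0.644 of sham, adjusted p = 0.0462). The groups did not overlap, but the nearest arrays stood at 5.51 and 5.50. Leaving out any of 6 of the 12 Balb/C arrays ended the call (wild type sham replicates 1 and 2, wild type AngII replicates 1 and 3, deficient sham replicate 1 and deficient AngII replicate 3), with values from -0.70 to -0.38 and adjusted p from 0.0519 to 0.217. The call also ended in 7 of 12 other settings, where its lowest size was -0.23, and adjusted p over all alternatives reached 0.287. In deficient Balb/C the difference was -0.47 ± 0.24 (adjusted p = 0.209), which array weights made a call (-0.59, adjusted p = 0.0325) and no background correction lowered to -0.16. The differences in C57Bl/6J were -0.02 ± 0.23 and -0.14 ± 0.23. Of 6 Nrp2 probes with 1 gene name, 3 were kept in C57Bl/6J and 1 in Balb/C, and 1 further probe annotated to several names was left out.

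The directions of the gene groups in wild type Balb/C depend on the scaling. With a common median for all arrays in place of quantiles the median of all genes moved by 0.38 there, and of 80 list entries called higher or lower, 52 kept their call and direction and 4 turned in sign. The shares of all genes called for AngII, 37.2% in wild type and 13.4% in deficient Balb/C and 7.9% and 3.72% in C57Bl/6J, are the background against which the AngII counts below are to be read.

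Of 22 tested signal transduction genes of the VEGF receptors, 5 rose and 4 fell in wild type Balb/C under AngII (median -0.07, beside -0.06 over all genes), a share near the 37.2% of all genes. The p38 kinase Mapk14 fell by 1.01 ± 0.13 (adjusted p = 2.82e-05), and the endothelial nitric oxide synthase Nos3 fell by 0.62 ± 0.13 (adjusted p = 0.00174). The endothelial receptor phosphatase Ptprb rose by 0.74 ± 0.15 (adjusted p = 0.00102), as did Hspb1, a small heat shock protein downstream of p38, by 0.85 ± 0.18 (adjusted p = 0.00172). Under median scaling 9 rose and 0 fell, Mapk14 was at -0.48 (adjusted p = 0.0504) and Nos3 at -0.11 (adjusted p = 0.653). In deficient Balb/C 3 rose and 1 fell, the latter being Mapk14, by 0.62 ± 0.13 (adjusted p = 0.00492), against 1 and 0 with median scaling. In C57Bl/6J 21 were tested, of which 1 rose and 1 fell in wild type and 1 fell in deficient mice, against 0 in both with median scaling.

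Genes of the oxygen response moved in both directions. Of 19 tested in Balb/C, 6 rose and 5 fell in wild type and 2 rose and 1 fell in deficient mice. Egln3, a prolyl hydroxylase induced by HIF, rose by 1.37 ± 0.22 (adjusted p = 0.000193) and Car9, a carbonic anhydrase and HIF target, by 1.16 ± 0.21 (adjusted p = 0.000607) in wild type. Epas1, encoding the subunit HIF-2 alpha of endothelium, fell by 1.10 ± 0.18 (adjusted p = 0.000233), and Hif1an, the asparaginyl hydroxylase of HIF, fell by 0.74 ± 0.14 (adjusted p = 0.000684). Median scaling gave 8 that rose and 1 that fell in wild type, and Hif1an was at -0.21 (adjusted p = 0.451). Egln3 rose by 1.02 ± 0.22 (adjusted p = 0.0068) in deficient Balb/C, where Hif1an fell by 0.62 ± 0.14 (adjusted p = 0.00783) and median scaling gave 2 that rose and 0 that fell. Between genotypes under AngII, Car9 fell by 0.88 ± 0.21 (adjusted p = 0.0143) and the glucose transporter Slc2a1 fell by 0.85 ± 0.15 (adjusted p = 0.0021) in deficient Balb/C. In C57Bl/6J 1 of 18 rose in wild type, the collagen prolyl hydroxylase P4ha1, by 0.99 ± 0.18 (adjusted p = 0.00762), and 0 changed in deficient mice.

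Genes that VEGF induces in endothelium also went both ways. In wild type Balb/C 5 of 15 rose and 4 fell (median 0.33), and in deficient Balb/C 3 rose and 2 fell (median 0.19). Egr3, an immediate early factor, rose by 2.33 ± 0.28 (adjusted p = 1.74e-05) and Notch1, the receptor that restrains tip cells, by 0.89 ± 0.17 (adjusted p = 0.000655), while the factor Ets1 fell by 0.89 ± 0.15 (adjusted p = 0.000342) and Angpt2, a ligand of Tek, fell by 0.69 ± 0.14 (adjusted p = 0.000977), all in wild type. Scaled by the median, 8 rose and 0 fell, with Ets1 at -0.36 (adjusted p = 0.149) and Angpt2 at -0.17 (adjusted p = 0.501). In C57Bl/6J 1 of 15 rose in each genotype, the calcineurin inhibitor Rcan1, by 1.67 ± 0.17 (adjusted p = 0.000195) in wild type and 1.13 ± 0.17 (adjusted p = 0.0115) in deficient mice.

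Among other angiogenic ligands and receptors 3 of 16 rose and 4 fell in wild type Balb/C, and 0 rose and 4 fell in deficient Balb/C, beside 37.2% and 13.4% of all genes called. The angiopoietin receptor Tek fell by 0.68 ± 0.13 (adjusted p = 0.001) and its partner Tie1 by 1.03 ± 0.17 (adjusted p = 0.000274) in wild type, and by 0.58 ± 0.13 (adjusted p = 0.00959) and 0.61 ± 0.17 (adjusted p = 0.0302) in deficient mice. With a common median 7 rose and 1 fell in wild type and 0 rose and 1 fell in deficient Balb/C, and Tek was at -0.17 (adjusted p = 0.533) in wild type. In C57Bl/6J 1 of 16 rose in wild type, the angiogenesis inhibitor Thbs1, by 1.68 ± 0.29 (adjusted p = 0.00539), and 0 were called in deficient mice, where median scaling gave 2 that rose. Of the semaphorins and plexins that act through neuropilins, 6 of 13 were tested, and in wild type Balb/C 2 rose and 1 fell, against 2 and 0 with median scaling. Sema3f, a secreted ligand of Nrp2, rose by 0.88 ± 0.18 (adjusted p = 0.00126) in wild type and, in deficient Balb/C, by 0.74 ± 0.18 (adjusted p = 0.0132), and by 0.71 ± 0.12 (adjusted p = 0.00409) in wild type C57Bl/6J. Plxnd1, an endothelial semaphorin receptor, fell by 0.59 ± 0.15 (adjusted p = 0.00555) in wild type Balb/C but was at -0.08 (adjusted p = 0.748) with a common median. Of the proteases that process VEGF-C and VEGF-D, the convertase Pcsk6 fell by 0.77 ± 0.13 (adjusted p = 0.000384) and Furin rose by 0.37 ± 0.13 (adjusted p = 0.0342) in wild type Balb/C, of 5 tested. Median scaling gave 2 that rose and 0 that fell there, and Pcsk6 was at -0.25 (adjusted p = 0.269).

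Cell markers moved in the same contrasts. In bulk tissue fewer cells of a type and less RNA per cell cannot be told apart. Of 15 pan-endothelial markers 2 rose and 7 fell in wild type Balb/C under AngII (median -0.33), and 0 rose and 4 fell in deficient Balb/C (median -0.24). The tight junction gene Cldn5 fell by 1.10 ± 0.15 (adjusted p = 4.85e-05) and by 0.64 ± 0.15 (adjusted p = 0.0105). This list turned under median scaling in wild type, to 4 higher and 1 lower (median 0.13), and gave 0 called in deficient Balb/C (median -0.21). The summed signal of the list, after quantile normalization, ran from 25298 to 28018 in wild type sham and from 21117 to 23322 under AngII in Balb/C, and from 24322 to 25586 and 20392 to 22230 in deficient mice. In C57Bl/6J the same list gave 1 higher and 0 lower in wild type and 0 called in deficient mice, although the summed signal was also lower under AngII in the deficient groups, 25908 to 27450 against 29268 to 33497. Nrp1, Tek and Tie1 were called lower in both genotypes of Balb/C, where this summed signal was lower. None of them was called in deficient C57Bl/6J, where it was lower too. The part of endothelial content in this was not tested. The 9 kept cardiomyocyte markers include the natriuretic peptide gene Nppa, and a sum of signals weighs the brightest genes most. Their sum is therefore no measure of cell content alone. Summed over the 9 cardiomyocyte markers, the signal ran from 101546 to 116209 in wild type Balb/C sham and from 121255 to 129117 under AngII. In deficient Balb/C it ran from 105108 to 111115 and from 111893 to 118962, while the ranges overlapped in C57Bl/6J. The list median with median scaling was 0.14 and 0.12 in these Balb/C genotypes, beside 0.32 and -0.04 over all genes. The brighter Vegfa probe rose in these groups, and the cardiomyocyte part was not tested.

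Of 9 pericyte and smooth muscle markers 5 fell in wild type Balb/C and 1 in deficient Balb/C, and with a common median 3 and 0 fell. The channel subunits were among them, with Abcc9, which fell by 1.31 ± 0.15 (adjusted p = 1.14e-05), and Kcnj8, which fell by 1.32 ± 0.17 (adjusted p = 2.57e-05), in wild type. Of 10 fibroblast markers 8 rose and 1 fell in wild type Balb/C, with Col3a1 higher by 3.36 ± 0.22 (adjusted p = 4.26e-08). Median scaling gave 9 that rose and 0 that fell. Fibroblast markers were lower in deficient than in wild type Balb/C under AngII for 6 of 10 and higher for 1, where 10.7% of all genes were called. Median scaling gave 7 lower and 1 higher there, beside 2047 lower and 106 higher of all 10669 genes. The mean log2 signal of 6 macrophage and leukocyte markers, after quantile normalization, was 7.72 (SD 0.08) in wild type and 7.29 (SD 0.31) in deficient AngII arrays. Median scaling gave 4 of these markers lower and 0 higher, but it also moved the median of all genes in this contrast by -0.25. Vegfc fell in the same contrast, and the part of fibroblasts or macrophages in this was not tested. Of 8 lymphatic endothelial markers 3 rose and 2 fell in wild type Balb/C and 4 rose in wild type C57Bl/6J. The lymphatic receptor gene Lyve1, which some macrophages also express, rose by 1.41 ± 0.23 (adjusted p = 0.000237) and the lymphatic factor Prox1 fell by 0.90 ± 0.15 (adjusted p = 0.000269) in wild type Balb/C, so the list did not move one way, although with a common median 4 rose and 0 fell and Prox1 was at -0.38 (adjusted p = 0.111). Between genotypes in C57Bl/6J under AngII, where 0.166% of all genes were called, 1 of the 8 lymphatic markers was called, Mmrn1, which fell by 2.13 ± 0.15 (adjusted p = 2.54e-05). The median of that list was 0.06 there.

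The genes most like each called member were found by the root mean square difference of log2 signals over the 24 arrays, after centring each gene within each strain, among 9661 genes. For Vegfa these were Ist1, Abi1 and Zfyve16 (0.17, 0.17 and 0.19, beside 0.39 for Vegfa about its own strain means). For Nrp1 they were Ctnnbl1, Phf20l1 and Angel2 (0.10, 0.11 and 0.11, beside 0.26). For Vegfc they were Timp2, Mfsd1 and Fubp3 (0.14 each, beside 0.21), and for Nrp2 Garre1, Thsd1 and Sart1 (0.24, 0.25 and 0.25, beside 0.36), which follow it least closely. None of these genes is a member, and 0 of the other 9 members was among the 3 nearest of any.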

How the data were processed

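The authors deposited intensity values that the file headers call not normalized, in 1 table per strain. Each deposited intensity has its own detection p-value beside it. A series table of log2 values was also deposited by the authors and matches a quantile normalization within each strain. The scanner, slides and hybridisation batches are not stated in the labels or files used. In R 4.3.3 with limma 3.58.1, signals of each strain were background-corrected and quantile-normalized by neqc (offset 16). Probes with detection p below 0.05 on at least 3 of 12 arrays were kept (20319 in C57Bl/6J, 19783 in Balb/C). For Balb/C, 313 detection cells whose entry is not a value from 0 to 1 were taken as 1. Each gene was read from its brightest kept probe, 10816 and 10669 genes, named from the platform annotation updated to GRCm38.p6. Group means were fitted per strain, and the strains' responses were compared over 9921 genes with all 24 arrays in 1 fit. The number of arrays, 3 per group, limits the precision. The fit was tested on simulated data. Named genes were all members and, from each list, up to 4 called genes per comparison. Members and lists were chosen with earlier results of these data known. Alternatives changed background correction, offset, scaling, filters, probe rule, prior, array weights, groups in the fit and replicate block, and left out each array. The contrasts averaged over infusion or genotype, the ratios between probes, and the gene lists under median scaling were added after the values were seen.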

Additional observations from a re-analysis of the deposited data

Results flagged for a closer look

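The AngII response of Nrp1 differed between the strains in wild type mice by -0.69 (Balb/C minus C57Bl/6J, log2, adjusted p = 0.00452), which was flagged because the difference of responses itself passed the test. No group had enough arrays for a check of single outlying arrays.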

How the results depend on the processing

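Under the 12 other settings and with each array left out in turn, no member turned in sign past the threshold. Of 2899 alternative values of 113 uncalled results, 2813 moved by less than the replicate spread, 73 moved by more and 13 passed the threshold, and 174 of the 2899 had the other sign. The members called for AngII in deficient C57Bl/6J went from 0 to 1 (Nrp1) with no background correction, with a trended prior and on the deposited series values. Median scaling kept the count of 3 in wild type Balb/C with other members (Vegfc and Vegfd in place of Nrp1 and Nrp2) and gave 1 member in deficient Balb/C in place of 2, 2 between genotypes under AngII in place of 1 (Vegfc and Vegfd) and 1 for the difference of responses in Balb/C in place of 0 (Vegfc). The mean of detected probes gave 1 in wild type Balb/C in place of 3 and 1 in deficient Balb/C in place of 2. With only the groups compared, 0 were called between genotypes of Balb/C under AngII. Leaving out an array gave 2 to 4 in wild type Balb/C, 1 to 2 in deficient Balb/C and 0 to 1 between genotypes of Balb/C under AngII, and the other counts of members did not move. In the strain contrast of wild type mice, median scaling again called 1 member, but this was Vegfc (0.80) and not Nrp1. The cause was not tested. Same-numbered arrays of different groups had correlations from -0.16 to 0.19 in C57Bl/6J and -0.13 to 0.27 in Balb/C. Differently numbered arrays had -0.22 to 0.14 and -0.30 to 0.28. No clear pairing by number was seen, but with 3 arrays per group a weak one could be missed. With the replicate number as a block the members called were 3 in wild type and 2 in deficient Balb/C, as without it.

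Across the other settings the members called ran from 1 to 3 in wild type Balb/C, 1 to 3 in deficient Balb/C (3 with array weights, which added Nrp2) and 0 to 2 between genotypes of Balb/C under AngII. The counts over all genes ran from 3594 to 6791 in wild type Balb/C, 664 to 2652 in deficient Balb/C, 858 to 2153 between genotypes of Balb/C under AngII, 487 to 1303 in wild type C57Bl/6J and 207 to 754 in deficient C57Bl/6J. They ran from 7 to 38 between genotypes of C57Bl/6J under AngII, 6 to 17 and 110 to 766 for the difference of responses in C57Bl/6J and Balb/C, and 1156 to 2442 and 20 to 601 for the strain contrasts of wild type and deficient mice. Without 1 array the count in deficient C57Bl/6J fell as low as 45. With median scaling the share of calls that were higher went from 47.7% to 93% in wild type Balb/C, from 55.2% to 81.3% in deficient Balb/C, from 55% to 87% in deficient C57Bl/6J and from 36.7% to 4.92% between genotypes of Balb/C under AngII. It went from 53.4% to 98.3% and from 63.3% to 45% in the strain contrasts of wild type and deficient mice, from 27.1% to 0.392% for the difference of responses in Balb/C and from 33.3% to 56.2% between genotypes of C57Bl/6J under AngII. With 3 arrays per group and probes of Pgf, Kdr, Flt4 and Nrp2 close to background, small differences of these genes were not detectable.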
